A study of Mus musculus with 3 samples.

Results

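The transcripts of 10 genes of developing T cells (Trbc1, Trbc2, Cd3e, Lck, Themis, Bcl11b, Rag1, Ptcra, Cd4 and Cd8a), out of 32293 features counted, were followed through barcodes that carry the marks of thymic stroma. The genes were chosen with results of these data known, and the barcodes were selected on the counts of 4 other genes. A barcode was taken as a thymic epithelial cell (TEC) with at least 2 unique molecular identifiers (UMIs) of Epcam, as an endothelial cell (EC) with at least 2 of Pecam1, and as a fibroblast (FB) with at least 2 of Pdgfra. TEC were divided by Psmb11, the catalytic subunit of the proteasome of cortical TEC: Psmb11-high TEC had at least 2 UMIs of it and Psmb11-free TEC had 0. Of 17677 called barcodes, 229 were Psmb11-high TEC, 2016 Psmb11-free TEC, 4296 EC and 4754 FB, and 6706 passed no gate.

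The thymic cortex is where immature thymocytes rearrange their receptor genes and are tested on the peptides that cortical TEC display. Thymocytes at this stage carry both coreceptors, CD4 and CD8, and lie pressed against cortical TEC. Some cortical TEC enclose whole thymocytes within their own membrane and are known as thymic nurse cells. Such complexes survive tissue digestion in part, so that the RNA of lymphocytes can share a droplet with the RNA of an epithelial cell. The comparison addressed whether T-cell transcripts went with cortical TEC more than with other stromal barcodes of the same library. Uncalled barcodes, those not called as cells, were a further comparison.

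The 3 libraries, each the only one of its group, came from untreated C57BL/6 mice at 20 months of age. Female and male mice with the Foxn1 lineage trace gave the libraries named Foxn1Lin female and Foxn1Lin male here, and males without it gave the wild type library. The trace rests on a Cre recombinase expressed from Foxn1, the transcription factor of TEC, that removes a stop cassette before a tdTomato reporter in the Rosa26 locus. In every library the thymi were digested, depleted of CD45+ cells on magnetic columns and then sorted. The protocol in the labels names 10 to 15 pooled thymi of female mice for all libraries, although the sex field gives male for 2 of the 3. For the wild type library the labels give the sort both as CD45- (title) and as CD45-PECAM1+ (cell type). It held 1825 FB and 1046 Psmb11-free TEC beside 1029 EC. With 1 library per group, a difference between libraries cannot be told apart from the genotype, sex or sort in which they differ by the labels.

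Depth differed between libraries and between classes. The called barcodes held 53366016 UMIs in Foxn1Lin female, 33386621 in the male lineage trace library and 61258534 in wild type, with medians of 4675, 7431 and 7947 per barcode. Barcodes that were not called as cells held a further 26.5%, 12.9% and 9.46% of each library's UMIs and give the level of RNA outside cells. Psmb11-high TEC were the deepest class, with a median of 25864, 23732 and 32133 UMIs, against 10607, 13207 and 17680 in Psmb11-free TEC. Between 3 and 14 called barcode sequences were shared by any 2 libraries. Levels are UMIs per 1000000 UMIs of the class (CPM), summed over its barcodes, and intervals are exact 95% intervals that cover counting error only.

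Trbc1 (chr6:41538218-41539881) and Trbc2 (chr6:41546730-41548352), which encode the alternative constant regions of the T-cell receptor beta chain, lie next to each other on the plus strand of GRCm38. Their coding sequences had 518 bases each and differed at 23 of them, an identity of 95.6%, with a longest identical run of 259 bases. Of the windows of 50 coding bases of Trbc1, 60.3% occurred in Trbc2 as well, whereas 0 of 170 windows of the 3′ untranslated part did. Their 30 coding bases with the most differences are shown here, read 5′ to 3′ from GENCODE vM21 transcripts with differing bases in capitals.
Trbc1: tACActggtgGtgatggcTatggtcaaAaG
Trbc2: tGGCctggtgCtgatggcCatggtcaaGaA
These are coding bases 479 to 508, where 7 of 30 differ. Where in the transcripts the reads fell was not tested, so the split of counts between both genes is uncertain while their sum is less so.

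The gates gave the classes their names and were described only. Values given as 3 numbers follow the order of libraries above, Foxn1Lin female first and wild type last. Psmb11 stood at 931, 205 and 711 CPM in Psmb11-high TEC. Prss16, a serine protease of cortical TEC that no gate used, stood at 3515, 1126 and 3428 CPM there, against 28.0, 32.5 and 25.1 CPM in Psmb11-free TEC. All 9 genes of the cortical list (Prss16, Psmb11, Ly75, Enpep, Tbata, Ccl25, Cxcl12, Foxn1 and Dll4) were detected in Psmb11-high TEC of each library, with a summed level of 16242, 4208 and 14895 CPM. The cortical label thus fitted Foxn1Lin female and wild type best, and the 15 Psmb11-high TEC of Foxn1Lin male had the lowest cortical level with the highest Epcam, 1310 CPM against 304 and 438. At the edges of the gate, TEC with 1 UMI of Psmb11 held the 10 transcripts at 103, 97.4 and 234 CPM. TEC with exactly 2 held them at 2231 CPM (8 barcodes), 0 (2 barcodes) and 132 CPM (15 barcodes). At the edge of the other gate, barcodes with at least 2 UMIs of Psmb11 and exactly 2 of Epcam held them at 1783 CPM in Foxn1Lin female (17 barcodes) and 8.24 CPM in wild type (13 barcodes). With 1 UMI of Epcam the level was 2022 CPM (17 barcodes), 0 (1 barcode) and 0 (9 barcodes), and with 0 it was 1279 CPM (34 barcodes), 0 (1 barcode) and 1547 CPM (19 barcodes).

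T-cell transcripts were abundant in Psmb11-high TEC of 2 libraries and nearly missing in those of the other one. The 10 genes together stood at 1190 CPM (3691 UMIs, 1152 to 1230) in Psmb11-high TEC of Foxn1Lin female, at 1.64 CPM (1 UMI, 0.0416 to 9.16) in Foxn1Lin male and at 1020 CPM (4031 UMIs, 989 to 1052) in wild type. In Psmb11-free TEC the level was 162, 54.3 and 58.8 CPM in the same order. Within Foxn1Lin female the class with Psmb11 was thus 7.36-fold higher (6.85 to 7.90), and within wild type 17.4-fold higher (16.3 to 18.5). Within Foxn1Lin male it was lower, with a ratio of 0.0303 (0.000765 to 0.170) that rests on 1 UMI against 457. With every gate at 1 UMI this ratio was 0.833 (0.597 to 1.14), an interval that includes 1.

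The other stromal classes held fewer in Foxn1Lin female and wild type. Among Psmb11-high TEC, Psmb11-free TEC, EC and FB, FB were the lowest in Foxn1Lin female and wild type, at 109 and 14.8 CPM. TEC with 1 UMI of Psmb11, which are outside these classes, stood at 103 and 234 CPM in the same libraries. FB stood at 7.69 CPM in Foxn1Lin male. EC stood at 291, 117 and 513 CPM, but part of this came from barcodes that also passed the Epcam gate. Those barcodes, 66 in Foxn1Lin female and 102 in wild type, held 49.5% and 56.7% of the T-cell UMIs of the EC gate. Of them, 17 and 16 were Psmb11-high TEC and held 1837 of the 3691 and 2853 of the 4031 T-cell UMIs of that class. EC that passed no other gate stood at 171, 124 and 329 CPM. When Psmb11-high TEC were also restricted to barcodes with no other gate, their level was 671, 0 and 386 CPM. In wild type this was 1.18-fold (1.10 to 1.26) that of EC that passed no other gate. The highest of those EC barcodes held 784 of their 2637 T-cell UMIs, a concentration that the interval does not cover.

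Uncalled barcodes did not follow the same order. They held the 10 transcripts at 1445, 589 and 191 CPM. Psmb11-high TEC of Foxn1Lin female were below this level, with a ratio of 0.824 (0.796 to 0.852), those of Foxn1Lin male far below it, with a ratio of 0.00279 (7.06e-05 to 0.0156), and those of wild type above it, with a ratio of 5.34 (5.01 to 5.70). The ratio of Foxn1Lin female depends on which uncalled barcodes are used, since it was 2.25 against those with 10 or fewer UMIs and 0.776 against those with over 100 and up to 500. That of wild type turned to 0.372 (0.317 to 0.435) without called barcodes that held a Ptprc UMI.

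**Figure D1:**
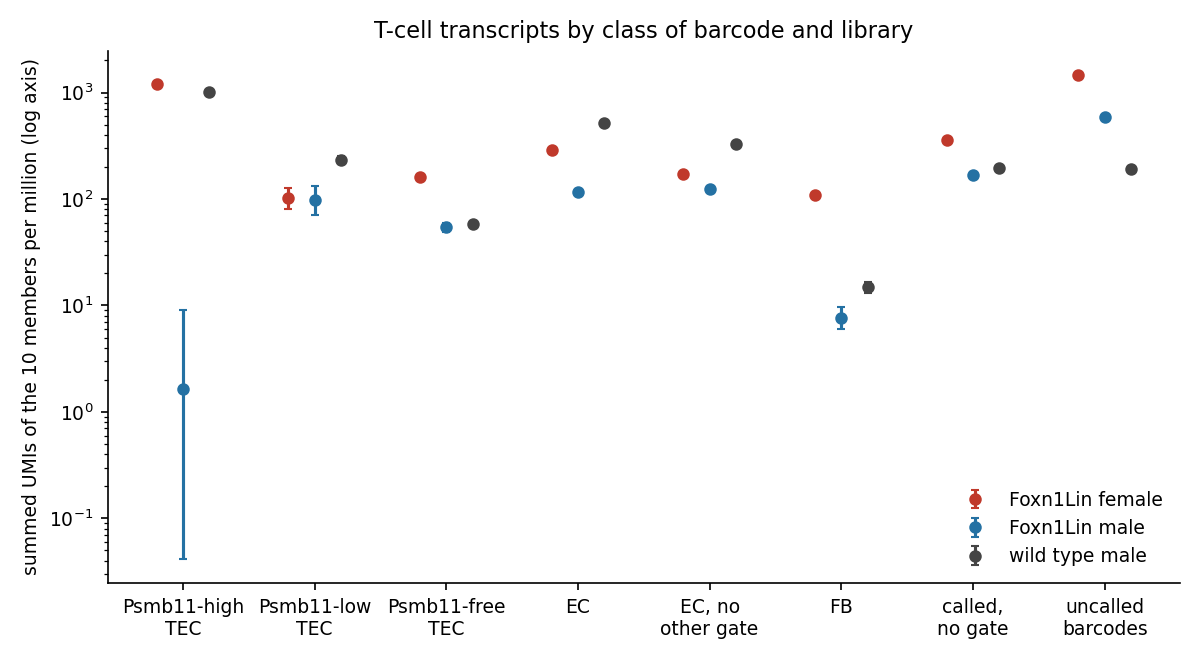
Summed level of the 10 T-cell transcripts in UMIs per 1000000 (log axis) for each class of barcode, 1 point per library, with bars for the exact 95% counting interval. Psmb11-high TEC stand at 1190 and 1020 in Foxn1Lin female and wild type and at 1.64 in Foxn1Lin male, while FB of the same libraries stand at 109, 14.8 and 7.69.

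The receptor genes led. Trbc1 stood at 275 CPM in Psmb11-high TEC of Foxn1Lin female and 260 in wild type, with 0 UMIs in Foxn1Lin male, where 0 allows up to 4.93 CPM at 3 counts. Trbc2 stood at 312 and 307 CPM, again with 0 UMIs in Foxn1Lin male. In Psmb11-free TEC Trbc1 stood at 23.7, 4.87 and 3.69 CPM and Trbc2 at 30.3, 10.9 and 8.31 CPM. Cd3e (chr9:44998740-45009627), a signalling chain of the receptor complex, stood at 77.7, 1.64 and 54.2 CPM in Psmb11-high TEC and at 13.8, 2.37 and 1.91 CPM in Psmb11-free TEC. The 1 UMI of Cd3e was the only member UMI in the 15 Psmb11-high TEC of Foxn1Lin male.

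Of the signalling and selection genes, Lck (chr4:129548344-129573641), the kinase that the coreceptors bring to the receptor, stood at 74.2, 0 and 47.1 CPM in Psmb11-high TEC and at 15.0, 5.46 and 3.73 CPM in Psmb11-free TEC. Themis (chr10:28668360-28883818), an adaptor needed for thymocyte selection, stood at 168, 0 and 100.7 CPM against 34.7, 3.80 and 6.09 CPM. Both were higher in the class with Psmb11 in the same 2 libraries.

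Genes of the stage at which receptors are made showed a split. Rag1 (chr2:101638282-101649501), the recombinase subunit that cuts receptor genes, stood at 67.1, 0 and 58.2 CPM in Psmb11-high TEC against 4.67, 1.66 and 2.13 CPM in Psmb11-free TEC. Ptcra (chr17:46755663-46763712) encodes the surrogate alpha chain of the pre-T-cell receptor, which precedes the stage with both coreceptors. Ptcra held only 5, 0 and 9 UMIs in Psmb11-high TEC, or 1.61, 0 and 2.28 CPM, beside 9, 12 and 24 UMIs in Psmb11-free TEC. The intervals of the CPM overlap in Foxn1Lin female (0.524 to 3.76 and 0.686 to 2.85), so no difference in Ptcra was detectable there at this depth.

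The coreceptors were both present. Cd4 (chr6:124864692-124888221) stood at 52.6, 0 and 33.9 CPM in Psmb11-high TEC against 7.999, 5.22 and 2.67 CPM in Psmb11-free TEC. Cd8a (chr6:71373427-71379173) stood at 59.7, 0 and 59.2 CPM against 5.00, 1.31 and 1.29 CPM. Bcl11b (chr12:107910403-108003602), the zinc finger factor that commits cells to the T lineage, stood at 104, 0 and 97.7 CPM against 25.2, 17.2 and 27.9 CPM. In Foxn1Lin female and wild type this was the smallest fold difference among the members above 10 CPM in Psmb11-high TEC of both libraries.

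**Figure D2:**
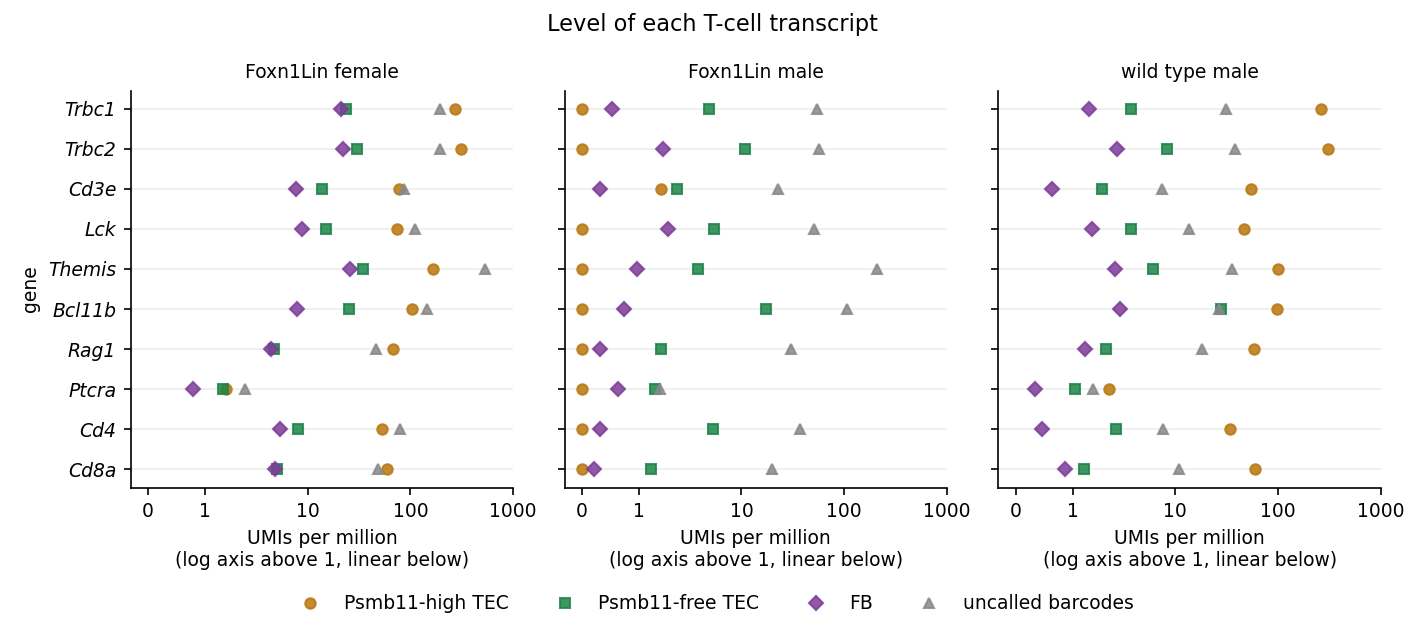
Level of each T-cell transcript in UMIs per 1000000 (log axis above 1, linear below) in Psmb11-high TEC, Psmb11-free TEC, FB and uncalled barcodes, 1 panel per library. In wild type 9 of 10 genes lie farther right in Psmb11-high TEC than in uncalled barcodes by more than 2 CPM, while in Foxn1Lin male 9 of 10 genes lie at 0 in Psmb11-high TEC.

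Across libraries the difference was tested with edgeR's quasi-likelihood test on the 12 sums (4 classes in 3 libraries) with the library as a term. Against Psmb11-free TEC, 8 of 10 genes were higher in Psmb11-high TEC at an adjusted p of at most 0.05, beside 12.0% of the 20265 genes tested. None was lower, beside 16.1% of all genes, and DESeq2 gave 5 higher and 0 lower. At an unadjusted p under 0.05 there were 8 members by edgeR and 7 by DESeq2. The log2 fold change ± SE was 3.90 ± 0.69 for Rag1 (edgeR adjusted p = 0.00341), 4.15 ± 0.84 for Cd8a (adjusted p = 0.00612) and 3.27 ± 0.77 for Cd3e (adjusted p = 0.0119). Trbc1, Trbc2, Themis, Lck and Cd4 had log2 fold changes between 2.48 and 4.15 with adjusted p up to 0.0441. Of these, Trbc1 (adjusted p = 0.0504), Trbc2 (0.0939) and Cd4 (0.145) did not pass by DESeq2. Bcl11b (1.33, edgeR adjusted p = 0.138) and Ptcra (0.43, edgeR adjusted p = 0.652) did not pass. The median log2 fold change was 3.07 over the members and -0.11 over all genes tested.

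Foxn1Lin male went the other way for the summed members, and the calls depended on the other libraries. Without wild type, 0 members passed (edgeR; 4 at an unadjusted p under 0.05), without Foxn1Lin female 4 passed, and without Foxn1Lin male 9 passed. Calls over all genes moved too, with 458 of 18513, 597 of 19113 and 2185 of 19628 genes higher in the same order.

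Against FB, 9 of 10 genes were higher (edgeR, 17.2% of all genes were higher and 22.1% lower), all but Ptcra, with log2 fold changes from 3.13 to 4.55 and a median of 3.89 over the members. Without wild type 4 members passed, beside 1870 of 18513 genes higher, and without barcodes that held a Ptprc UMI 6 passed, beside 2970 of 19900. Against EC, no member passed in either direction by edgeR, 0 had an unadjusted p under 0.05 and DESeq2 also called 0, beside 15.9% of all genes called higher and 19.1% lower. Rag1 was nearest, at a log2 fold change of 1.17 ± 0.59 (edgeR adjusted p = 0.152). The EC sums include the barcodes shared with the Epcam gate. With every class limited to barcodes of 1 gate edgeR again called 0, beside 3845 of 19638 genes higher and 4558 lower. Without barcodes that held a Ptprc UMI, edgeR called 5 members higher than in EC, beside 3040 of 19900 genes.

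The transcripts were concentrated in a subset of Psmb11-high barcodes and were not spread over the class. In wild type 78 of the 107 Psmb11-high TEC held 2 or fewer of the 10 genes, 29 held 6 or more, and 0 lay between. In Foxn1Lin female 60 held 2 or fewer, 36 held 6 or more and 11 lay between. A barcode with at least 5 of the 10 genes is called a carrier here, a limit set after the data were seen. Carriers were 38 of 107 Psmb11-high TEC in Foxn1Lin female (35.5%, 26.5 to 45.4, Clopper-Pearson) and 29 of 107 in wild type (27.1%, 19.0 to 36.6). In Foxn1Lin male they were 0 of 15, which allows a share of up to 20% by 3 counts and of up to 21.8% by Clopper-Pearson.

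Carriers were rare in the other classes. They were 9 of 469 Psmb11-free TEC in Foxn1Lin female (1.92%), 5 of 501 in the male lineage trace library (0.998%) and 8 of 1046 in wild type (0.765%). In the whole EC gate they were 1.49%, 1.52% and 4.18%, and among EC outside the other gates 0.966%, 1.51% and 2.57%. FB carriers were 19 of 2023, 0 of 906 and 3 of 1825.

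**Figure D3:**
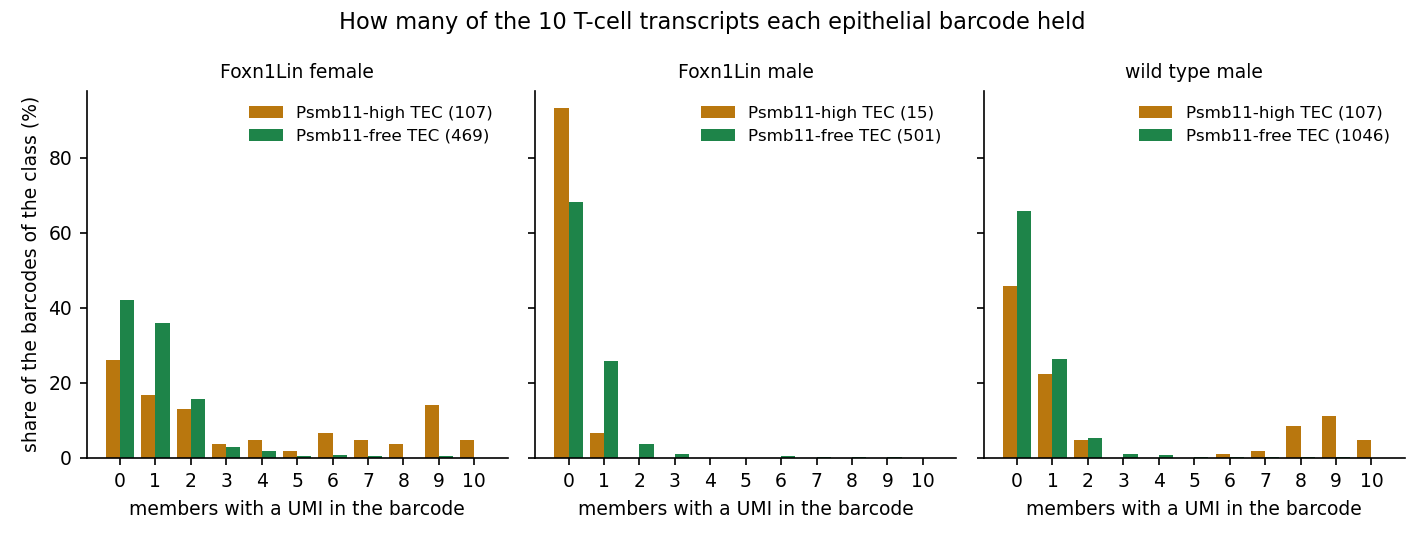
Share of Psmb11-high and Psmb11-free TEC barcodes (percent of the class) by how many of the 10 T-cell transcripts had a UMI, 1 panel per library with the number of barcodes in the legend. In wild type the Psmb11-high TEC form a group of 78 at 0 to 2 genes and a group of 29 at 6 to 10 genes, and in Foxn1Lin male all 15 lie at 0 or 1.

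Nearly all T-cell UMIs of the class sat in the carriers, which held 96.0% of them in Foxn1Lin female and 98.6% in wild type. EC outside the other gates shared this in wild type and Foxn1Lin male, where carriers held 95.1% and 84.8% of the member UMIs, but not in Foxn1Lin female, at 39.5%. The median Psmb11-high carrier of Foxn1Lin female and wild type held 58.5 and 83 member UMIs, or 0.159% and 0.179% of the barcode's own UMIs. The highest barcodes of Foxn1Lin female held 347, 331 and 310 member UMIs, and those of wild type 518, 441 and 342. In the EC gate the highest values were 347, 331 and 310 in Foxn1Lin female and 784, 518 and 441 in wild type. Outside carriers the Psmb11-high TEC stood at 91.6 and 22.1 CPM, beside 83.1 and 41.1 CPM for Psmb11-free TEC outside carriers. Carriers are defined by the members, so these remaining levels are a description.

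A carrier holds at least 5 members by definition, and which ones is described here. All 38 Psmb11-high carriers of Foxn1Lin female and all 29 of wild type had a Trbc UMI, and 33 and 26 had both Trbc1 and Trbc2. Both coreceptors, Cd4 and Cd8a, were present in 29 of 38 carriers of Foxn1Lin female and in 24 of 29 of wild type, and Rag1 was added to both in 25 and 24. Carriers among Psmb11-free TEC held the same pair of coreceptors in 3 of 9, 3 of 5 and 5 of 8. In the EC gate 20 of 35, 7 of 14 and 30 of 43 carriers held the pair, and 15, 5 and 28 held Rag1 as well. FB carriers held the pair in 8 of 19 in Foxn1Lin female and 2 of 3 in wild type. Ptcra was found in 5 of the 38 and 5 of the 29 Psmb11-high carriers.

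Carriers were also set beside Psmb11-high TEC with no member. Psmb11, which chose both sets of barcodes, stood at 1017 CPM in the carriers of Foxn1Lin female and 976 CPM in the 28 Psmb11-high TEC with no member, and in wild type at 731 and 754 CPM. Prss16 stood at 3704 against 3546 CPM and at 3694 against 3606 CPM. Ccl25, the chemokine that draws thymocyte precursors, stood at 4174 against 2450 CPM and at 3898 against 2886 CPM. Ly75, an endocytic receptor of cortical TEC, stood at 554 against 762 CPM and at 743 against 711 CPM. Epcam was lower in carriers, at 214 against 437 CPM in Foxn1Lin female and 316 against 578 CPM in wild type. With 1 library per group these are values without a test.

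Depth, a leukocyte marker and the endothelial gate moved with carriage. Of the carriers 10 of 38 and 14 of 29 (26.3% and 48.3%) also passed the EC gate, against 15.9% and 15.0% of all Psmb11-high TEC. Pecam1 had a UMI in 20 of 38 and 19 of 29 carriers, against 5 of 28 and 8 of 49 barcodes with no member. For Pdgfra these were 8 of 38 and 1 of 29, against 0 of 28 and 5 of 49. Carriers had a median of 40188 UMIs in Foxn1Lin female and 49915 in wild type, against 16980 and 25048 for Psmb11-high TEC with no member. Ptprc, which encodes CD45, had a UMI in 31 of 38 and 26 of 29 carriers and in 2 of 28 and 0 of 49 barcodes with no member. Without barcodes that held a Ptprc UMI, Psmb11-high TEC stood at 310 CPM in Foxn1Lin female and 71.1 in wild type, or 3.98-fold and 1.82-fold the level of Psmb11-free TEC, and edgeR called 5 members higher, beside 2442 of 19900 genes. The doublet caller Scrublet placed 5 of the 38 and 4 of the 29 carriers among its highest 3.9% of scores. For all Psmb11-high TEC these were 10 of 107 and 8 of 107. An epithelial cell that encloses thymocytes, one with thymocytes attached and a droplet that caught separate cells cannot be told apart in these counts.

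Carriers were more frequent among Psmb11-high TEC of 2 libraries in the deeper bins. Among TEC with at least 40000 UMIs, 19 of 25 Psmb11-high barcodes were carriers in Foxn1Lin female and 16 of 37 in wild type, against 0 of 8 and 2 of 113 Psmb11-free ones. From 20000 to under 40000 UMIs carriers were 17 of 50 and 12 of 50, against 2 of 61 and 4 of 333. From 10000 to under 20000 UMIs they were 2 of 22 and 1 of 16, against 4 of 180 and 2 of 373. Under 10000 UMIs they were 0 of 10 and 0 of 4, against 3 of 220 and 0 of 227, and in Foxn1Lin female the level there was lower in Psmb11-high TEC, at 28.8 against 234 CPM. In Foxn1Lin male 0 of 5 Psmb11-high TEC with at least 40000 UMIs were carriers, against 3 of 30 Psmb11-free ones. After each barcode was thinned to 2000 UMIs, a member UMI was found in 41.1% of Psmb11-high TEC of Foxn1Lin female, 0% of Foxn1Lin male and 27.4% of wild type, beside 19.6%, 4.99% and 8.15% of Psmb11-free TEC and 14.6%, 1.55% and 1.05% of FB. Before thinning the shares were 73.8%, 6.67% and 54.2%, beside 58.0%, 31.7% and 34.1% of Psmb11-free TEC and 38.0%, 7.62% and 4.71% of FB. FB should lack these genes, yet 19 FB carriers held 755 of the 1802 member UMIs of FB in Foxn1Lin female, and 15 of the 19 had a Ptprc UMI. Barcodes shared with the Epcam gate held 27.5% of those UMIs, and the part of RNA outside cells in the FB share was not tested.

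Carrier shares were highest at 10 or more UMIs of Psmb11 in Foxn1Lin female and wild type, but not in Foxn1Lin male. In Foxn1Lin female they were 1.92% at 0 UMIs of Psmb11, 4.88% at 1, 16.7% at 2 to 4, 20% at 5 to 9 and 43.2% at 10 or more. In wild type the shares were 0.765%, 5.80%, 4.17%, 15.4% and 37.1%. In Foxn1Lin male they were 0.998%, 6.25%, 0%, 0% and 0%, with 8, 4 and 3 barcodes in the last 3 bins. Median depth went up with Psmb11 as well, to 30635 and 36100 UMIs in the highest bin, and only 13 to 24 barcodes filled each middle bin.

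**Figure D4:**
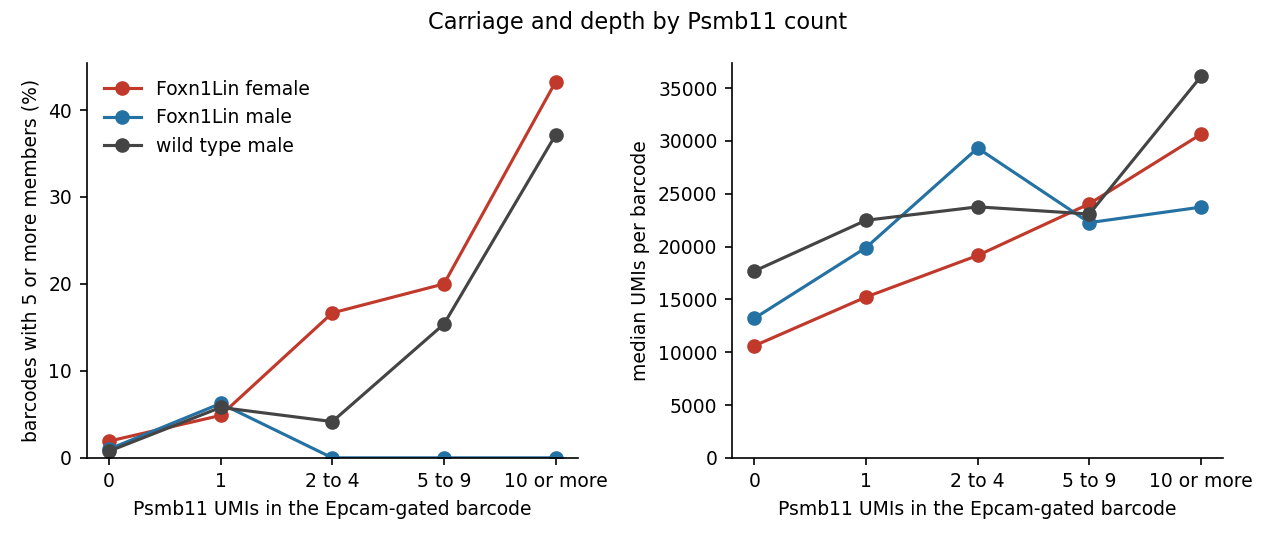
Left, share of Epcam-gated barcodes with 5 or more of the 10 T-cell transcripts (percent) by the UMIs of Psmb11 in the barcode, and right, the median UMIs per barcode, 1 line per library. The share reaches 43.2% in Foxn1Lin female and 37.1% in wild type at 10 or more Psmb11 UMIs and stays at 0 from 2 Psmb11 UMIs in Foxn1Lin male, where these bins hold 8, 4 and 3 barcodes.

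The mix of T-cell UMIs in Psmb11-high TEC differed from that in uncalled barcodes. Trbc1 and Trbc2 together made up 49.3% (47.6 to 50.9) of the member UMIs in Psmb11-high TEC of Foxn1Lin female but 26.8% (26.2 to 27.3) in its uncalled barcodes. In wild type they made up 55.6% (54.0 to 57.1) against 36.2% (33.5 to 39.0). Themis went the other way, with 0.286 UMIs per Trbc UMI in Psmb11-high TEC of Foxn1Lin female against 1.39 in uncalled barcodes, and 0.178 against 0.519 in wild type. What sets these ratios was not tested.

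Called barcodes with 5 or more members that passed no gate gave another mix. Their Trbc share was 43.8% (41.8 to 45.8), 47.6% (43.9 to 51.2) and 33.7% (31.2 to 36.2). In wild type this was closer to the uncalled barcodes than to Psmb11-high TEC, and in Foxn1Lin female it lay nearer to Psmb11-high TEC.

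**Figure D5:**
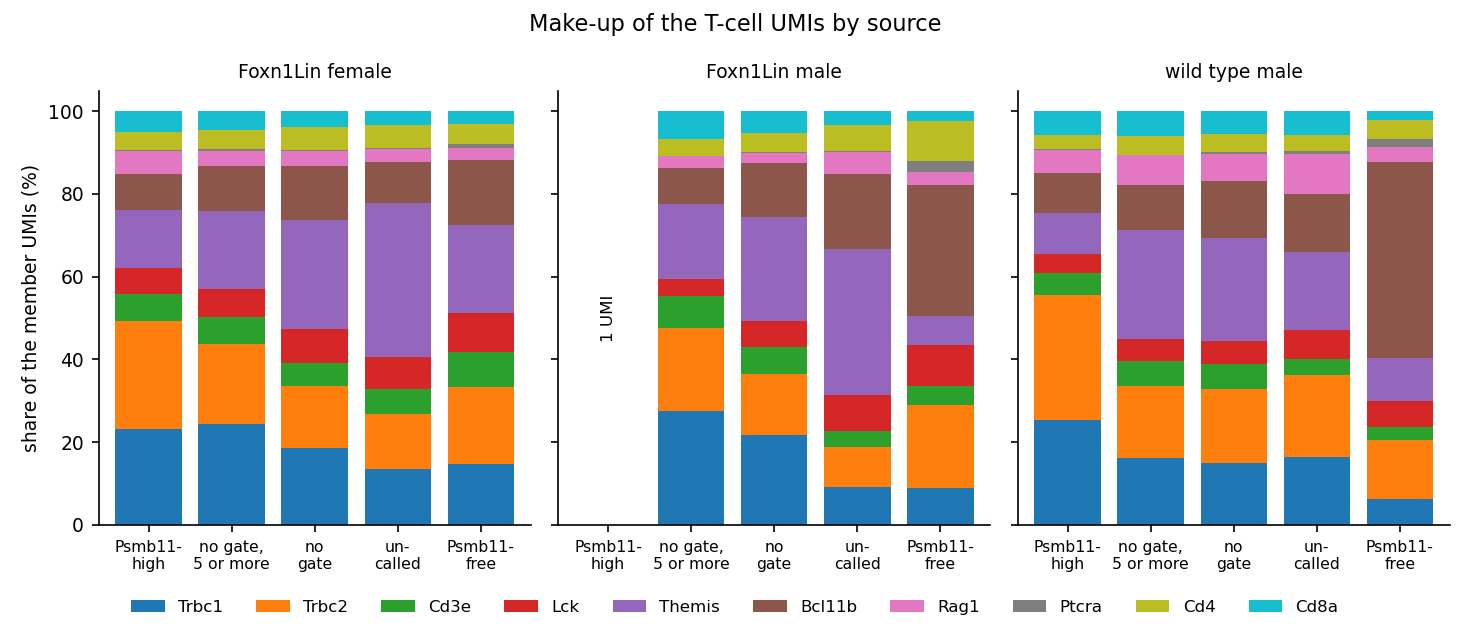
Make-up of the member UMIs (percent) in Psmb11-high TEC, called barcodes of no gate with 5 or more members, all called barcodes of no gate, uncalled barcodes and Psmb11-free TEC, 1 panel per library. Trbc1 and Trbc2 fill 49.3% and 55.6% of the bar of Psmb11-high TEC in Foxn1Lin female and wild type, Themis is widest in uncalled barcodes of the Foxn1Lin libraries, and Bcl11b fills 47.4% of the bar of Psmb11-free TEC in wild type.

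In Psmb11-free TEC of wild type and Foxn1Lin male Bcl11b was the member most often found alone, but not in Foxn1Lin female. Of 243 Psmb11-free TEC of wild type with a Bcl11b UMI, 178 held no other member, as did 49 of 70 in Foxn1Lin male and 27 of 78 in Foxn1Lin female. The share alone was 73.3% for Bcl11b in wild type and 18.2% to 52.4% for the other members, and in Foxn1Lin male 70.0% against 33.3% to 64.7%. In Foxn1Lin female it was 34.6%, below Themis at 48.0%, Cd4, Trbc1, Trbc2 and Cd8a. It made up 47.4% of member UMIs in Psmb11-free TEC of wild type and 31.7% in Foxn1Lin male, against 14.1% and 18.3% in the uncalled barcodes of these libraries. The barcodes with Bcl11b alone had 0 UMIs of Ptprc in wild type and Foxn1Lin male, whereas 3 of 27 (11.1%) had one in Foxn1Lin female, against 7.11% of those with no member. Krt14, a keratin of medullary and basal TEC, stood at 278 CPM in the wild type ones and at 94.4 CPM in Psmb11-free TEC with no member, with medians of 22422 and 14564 UMIs. In Foxn1Lin male Krt14 stood at 432 against 207 CPM and in Foxn1Lin female at 307 against 202 CPM. Krt5 stood at 517 against 309 CPM and at 276 against 255 CPM, and Krt19 at 58.3 against 65.8 CPM and at 11.8 against 85.1 CPM in these libraries. Krt14 was chosen after its values were seen. In wild type Krt5 (545 against 311 CPM) and Krt19 (83.7 against 55.3 CPM) were also higher, while Krt8 (895 against 1547 CPM), Krt18 (787 against 1327 CPM), Cldn7 (135 against 181 CPM), Epcam (790 against 885 CPM) and H2-Aa (2141 against 2541 CPM) were lower. Bcl11b is also known as a factor of basal cells in stratified epithelia.

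Other genes of the T lineage, from a list of 29, moved mostly with the members. Their summed level was 1785, 278 and 1679 CPM in Psmb11-high TEC, against 617, 474 and 460 CPM in Psmb11-free TEC and 3639, 1967 and 680 CPM in uncalled barcodes. By edgeR, 20 of 29 were higher in Psmb11-high than in Psmb11-free TEC and 1 was lower, beside 12.0% and 16.1% of all genes, with a median log2 fold change of 2.28 in the list and -0.11 over all genes. Rag2, the partner of Rag1, stood 5.18 ± 1.09 higher on the log2 scale (edgeR adjusted p = 0.00740), Cd8b1, the second chain of CD8, 3.62 ± 0.86 (edgeR adjusted p = 0.0126) and Dntt, which adds bases at receptor joints, 3.40 ± 0.82 (edgeR adjusted p = 0.0139). Lat, Cd3d, Cd2, Cd3g, Trdc, Cd5, Zap70, Satb1, Cd28, Lef1, Ccr9, Cd247, Thy1, Cd27 and Ets1 were also among the higher ones, at log2 fold changes between 1.49 and 3.71. The genes of this list with the most UMIs in Psmb11-high TEC were Tox, Satb1, Tcf7 and Ets1, and Tox (0.45, edgeR adjusted p = 0.261) and Tcf7 (1.41, edgeR adjusted p = 0.0864) did not pass. Ccr7, a receptor of mature thymocytes that move to the medulla, was the lower one at -3.09 ± 0.53 (edgeR adjusted p = 0.00299). Against FB 23 were higher and Thy1 was lower, beside 17.2% and 22.1% of all genes. Against EC Tox was higher and Ets1 lower, beside 15.9% and 19.1%.

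Most genes of other blood cells were not higher in Psmb11-high than in Psmb11-free TEC, and those named here were in part chosen after their values were seen. Of 8 tested B-lineage genes 0 were higher than in Psmb11-free TEC by edgeR and Igkc, Cd79b and Pax5 were lower, with the summed level at 2534, 39.5 and 244 CPM against 11174, 5906 and 3131 CPM. Igkc, the kappa light chain, stood at 1867, 36.2 and 13.2 CPM against 10529, 5000 and 2951 CPM. In wild type Jchain, the joining chain of antibodies, was the highest of the list in Psmb11-high TEC at 178 CPM. Of 11 tested myeloid genes Tyrobp was higher and Csf1r, Fcer1g, Itgam and Lyz2 were lower, and of 6 erythroid genes 0 passed in either direction. In the leukocyte list Ptprc was higher at 2.28 ± 0.71 (edgeR adjusted p = 0.0373), while Cd52, Laptm5 and Rac2 were lower, at log2 fold changes of -2.73, -1.85 and -1.56. Against FB, Coro1a, Ptprc, Rac2 and Laptm5 were higher by edgeR at log2 fold changes of 3.36, 2.78, 2.02 and 1.81, beside 17.2% of all genes. Of these, Rac2 and Laptm5 had gone the other way against Psmb11-free TEC. Against EC 0 of 5 passed, beside 15.9% of all genes higher and 19.1% lower. Cd52 stood at 517, 380 and 325 CPM in Psmb11-free TEC and at 216, 195 and 123 CPM in uncalled barcodes. Of 9 endothelial markers Flt1 was lower and 0 were higher, and of 8 fibroblast markers 0 passed. All counts of these lists against Psmb11-free TEC stand beside 12.0% of all genes higher and 16.1% lower.

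Over the 15 sums of 4 classes and uncalled barcodes, the genes whose log2(CPM + 1) went most closely with the summed members were Skap1 (Pearson r = 0.976), Ptprc (0.975), Cd3g (0.975), Arpp21 (0.972), Trac (0.971) and Gmfg (0.966), among 20255 genes compared. Skap1 is an adaptor of T-cell adhesion, Cd3g a chain of the receptor complex and Trac the constant region of its alpha chain. In Psmb11-high TEC of Foxn1Lin male each of these 6 had 0 UMIs. The 15 sums share libraries and differ in depth, so r is given as a description.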

How the data were processed

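Single-cell RNA counts of 3 libraries, 1 per group, were analysed. The authors deposited UMI counts per gene and barcode, raw and called as cells, made per the submitters' processing notes with Cell Ranger 7.01 on GRCm38.p5 (mm10), and the labels name the 10x 3′ kit. The members, lists and classes were chosen with earlier results of these data known. Barcodes were gated at 2 UMIs, and counts were summed per class and library. The 12 sums (30 UMIs or more per gene) were tested with edgeR 4.0.16 in R 4.3.3 (TMM, quasi-likelihood, library as a term, Benjamini-Hochberg adjustment, threshold 0.05), with DESeq2 1.42.0 as an alternative. The genes of the gates chose the barcodes, so their levels are descriptions. Genes named were all 10 members, list genes that passed, and the 6 genes most like the summed members. Levels are CPM with exact Poisson intervals, shares have Clopper-Pearson intervals, and a count of 0 allows 3. These cover counting error only, and sums of 1 library cannot give the spread between animals. With 1 library per group, libraries were not tested against each other. The p-values rest on how differences between the 4 classes varied over these 3 libraries, after the library term. Barcodes that passed more than 1 gate counted in each of those classes. Doublets were scored with Scrublet (scanpy 1.11.5, Python 3.11.15). They stayed in the main values and the highest 3.9% of scores were removed in an alternative. Shares were also computed after thinning to 2000 UMIs. The test was tried on simulated data. Gene positions and Trbc sequences came from GENCODE vM21. Some genes of the lists are not reported here by name.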

Additional observations from a re-analysis of the deposited data

Results flagged for a closer look

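The ratio of the summed T-cell transcripts between Psmb11-high and Psmb11-free TEC went in opposite directions between libraries. It was 7.36 in Foxn1Lin female and 17.4 in wild type, and 0.0303 in Foxn1Lin male, where it rests on 1 UMI in 15 barcodes. With gates at 1 UMI the ratio of Foxn1Lin male was 0.833 (0.597 to 1.14), so its direction is then not resolved. The difference between libraries was not tested, since each group has 1 library.

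Called barcodes that passed none of the gates, which entered no test, also included carriers of 5 or more of the 10 genes. There were 102 of 3827 in Foxn1Lin female (2.67%), 15 of 1292 in Foxn1Lin male (1.16%) and 30 of 1587 in wild type (1.89%). Of these, 77, 13 and 29 had a Ptprc UMI.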

How the results depend on the processing

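Against Psmb11-free TEC, edgeR called 8 members, beside 2422 of 20265 genes higher. Under other normalisations, filters, gates, gate overlap, doublet or quality removal it called 6 to 8, beside 1760 to 2603 genes higher. Members called numbered 5 with DESeq2, 2 with no library term, 5 without barcodes with a Ptprc UMI and 1 after thinning to 2000 UMIs before the gate. Thinning left 0, 1 and 4 Psmb11-high barcodes in the female, male and wild type libraries. Genes called higher over all genes in these 4 settings were 2133 of 19872, 1079 of 20265, 2442 of 19900 and 9 of 13188. Leaving out 1 library gave 0 to 9 members against Psmb11-free TEC, 0 to 0 against EC and 4 to 9 against FB. Genes called higher over all genes numbered 458 to 2185, 1746 to 2389 and 1870 to 2925 in the same order. Against EC 5 members were called without Ptprc barcodes, beside 3040 of 19900 genes higher, and 1 after thinning, beside 76 of 13188. Against FB 6 were called without Ptprc barcodes, beside 2970 of 19900, and 8 in barcodes of 1 gate, beside 3616 of 19638. With no library term 8 were called against FB, beside 2591 of 20265, and after thinning 1, beside 65 of 13188.

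The ratio of Psmb11-high to Psmb11-free TEC in Foxn1Lin female was 5.82 with gates at 1 UMI, 8.37 at 3, 5.23 in barcodes of 1 gate, 3.98 without Ptprc barcodes and 8.35 in TEC of at least 20000 UMIs, an alternative chosen after seeing the data. In Foxn1Lin male it was 0.833 at 1 UMI, 0 in 1 gate and 0 after thinning. In wild type it was 9.71, 19.9, 7.26, 18.9 without doublets, 1.82 without Ptprc barcodes and 27.8 after thinning. Over uncalled barcodes the ratio in Foxn1Lin female was 0.741 and 0.739 with gates at 1 and 3 UMIs, 0.464 in 1 gate, 0.793 without doublets, 0.214 without Ptprc barcodes and 0.931 in deep TEC. Against successive bands of uncalled barcodes, of up to 10, up to 100, up to 500 and over 500 UMIs it was 2.25, 1.37, 0.776 and 1.36. In Foxn1Lin male it was 0.0700 at 1 UMI, 0 in 1 gate, 0 after thinning and 0.0163 against those over 500 UMIs. In wild type it was 3.75, 6.27, 2.02, 4.64, 0.372 without Ptprc barcodes, 8.501 after thinning, and 7.06, 4.28, 6.25 and 23.1 against the 4 bands. The cause of these shifts was not tested.

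Shares of barcodes with a member UMI, in the order Psmb11-high TEC, Psmb11-free TEC, EC and FB, were 41.1%, 19.6%, 20.6% and 14.6% in Foxn1Lin female after thinning, and 57.0%, 27.7%, 13.8% and 10.7% for 2 member UMIs. In Foxn1Lin male they were 0%, 4.99%, 4.39% and 1.55%, and 0%, 10.98%, 3.81% and 0.331%. In wild type they were 27.4%, 8.15%, 7.32% and 1.05%, and 39.3%, 18.3%, 7.58% and 0.986%.

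Single members changed sign in 29 of their alternatives. Against EC the log2 fold change was -0.13 for Bcl11b, -0.24 for Cd4, -0.039 for Lck and -1.31 for Themis in barcodes of 1 gate, -0.52 for Cd4 and -0.31 for Themis without Ptprc barcodes, and -5.44 for Cd3e, -5.47 for Cd4, -6.46 for Lck and -5.39 for Rag1 after thinning. Ptcra was 0.38 and 0.0013 with gates at 1 and 3 UMIs. Themis was -0.29 with DESeq2, -0.046 with gates at 1 UMI and between -0.071 and 0.57 without 1 library. Against FB it was -4.42 for Cd3e, -3.75 for Cd4, -3.99 for Lck and -3.68 for Rag1 after thinning, and -0.13 for Ptcra without Ptprc barcodes. Against Psmb11-free TEC it was -1.22 for Bcl11b, -0.020 for Cd4 and -0.99 for Ptcra without Ptprc barcodes, -1.85 for Cd3e, -4.19 for Cd4, -4.94 for Lck and -3.75 for Rag1 after thinning, and between -0.21 and 0.85 for Ptcra without 1 library. The 15 Psmb11-high barcodes of Foxn1Lin male limit what that library can show.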
